A study of Mus musculus with 6 samples.

Results

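The genes described here encode the eukaryotic translation initiation factors (eIFs). They were taken as every gene whose symbol in the array's annotation begins with Eif and a number, leaving out the eIF2 kinases named Eif2ak and the sex-linked Eif2s3 genes, and they came to 41 of 18193 measured genes, through 115 probe sets. RNA was compared between LSK cells, which are low in lineage markers and positive for Sca1 and Kit, and LK cells, which are low in lineage markers, negative for Sca1 and positive for Kit. Both were sorted from wild type C57BL/6 mice by flow cytometry, with 3 arrays of each population, and neither the age of the mice nor the number behind a sample is given in the labels. The LSK gate holds haematopoietic stem cells together with multipotent progenitors, and the LK gate a mixture of committed progenitors, so a level is an average over cell types. In such bulk samples, fewer cells of a type and less RNA per cell cannot be told apart.

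Initiation loads a ribosome with its first tRNA at a start codon. eIF2 brings the initiator methionyl-tRNA and is recharged by eIF2B, eIF1 and eIF1A keep the small subunit scanning, eIF3 is the scaffold on that subunit, and the eIF4 factors bind the cap and unwind the leader of the mRNA. eIF5 and eIF5B complete the joining of the subunits. Haematopoietic stem cells are known for a lower rate of protein synthesis than the progenitors they give rise to.

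Most initiation factor genes had a lower mean log2 intensity in LSK than in LK cells. The difference, LSK minus LK, lay below 0 for 32 of the 41 genes, against 53.4% of all genes, and its median was -0.37, against -0.02 over all genes. Among the 36 initiation factor genes with a mean log2 of at least 5 in a population the median was -0.38, against -0.10 over the 6485 genes at that level. Of these 36, 30 lay below 0, against 56% of genes at that level. Without LK replicate 1, 28 of the 41 lay below 0 and their median was -0.20, and with averaged probe sets it was -0.23. Differences ran from -1.36 for Eif3b to 0.54 for Eif4a2. With limma p-values adjusted by Benjamini-Hochberg across the whole table and called under 0.05, Eif2b4 alone was lower, 1 of 41 genes against 2.89% of all genes, and 0 were higher, against 3.84% of all genes. Refitted on the genes with a mean log2 of at least 5 alone, 6 of 36 were lower, against 12.5%, and 0 higher, against 11.9%. At an unadjusted p under 0.05 over all genes the numbers were 19 lower and 0 higher, against 11.9% and 10.5% of all genes. The unadjusted shares were not taken among the genes with a mean log2 of at least 5.

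The samples carry the numbers 1 to 3 in both populations, and samples with the same number deviated together. With that number as a block in the fit, 12 of the 41 genes were lower in LSK, against 7.36% of all genes, and 1 was higher, against 7.02%. Of the 41, 36 had a mean log2 of at least 5, a level where calls without the block were commoner (12.5% lower when refitted). The share with the block was not taken at that level, so the excess over it is not known. The 12 were Eif3b, Eif3c, Eif2b4, Eif3l, Eif5b, Eif6, Eif4ebp1, Eif1ax, Eif2b2, Eif4g3, Eif4e2 and Eif2s2, and the higher gene was Eif4a2. This count rested on all 3 pairs: it was 1 lower without the arrays numbered 1, 3 without those numbered 2 and 3 without those numbered 3, and 0 higher in each case. Looking at the arrays alone, all 3 LSK arrays lay below all 3 LK arrays for 18 of the 41 genes, against 14.8% of all genes and 26.2% of the genes with a mean log2 of at least 5. The opposite order held for 2, Eif3h and Eif5a2, against 13.2% of all genes and 20.2% at that level. Both counts are over all 41 genes, so the shares at that level are not their direct match. Among the 36 initiation factor genes at that level, which leave out Eif5a2 and Eif4enif1, 18 did not overlap, counting both orders. Of these Eif3h alone was higher in LSK, and the others were lower. With 26.2% of genes at that level in the lower order and 20.2% in the higher, 18 of 36 in either order is close to the background. Over all 41, each LSK array lay below the LK array of its own number in 27 genes and above it in 4, against 27.1% and 22.6% of all genes. These shares were not taken among the genes with a mean log2 of at least 5.

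**Figure D1:**
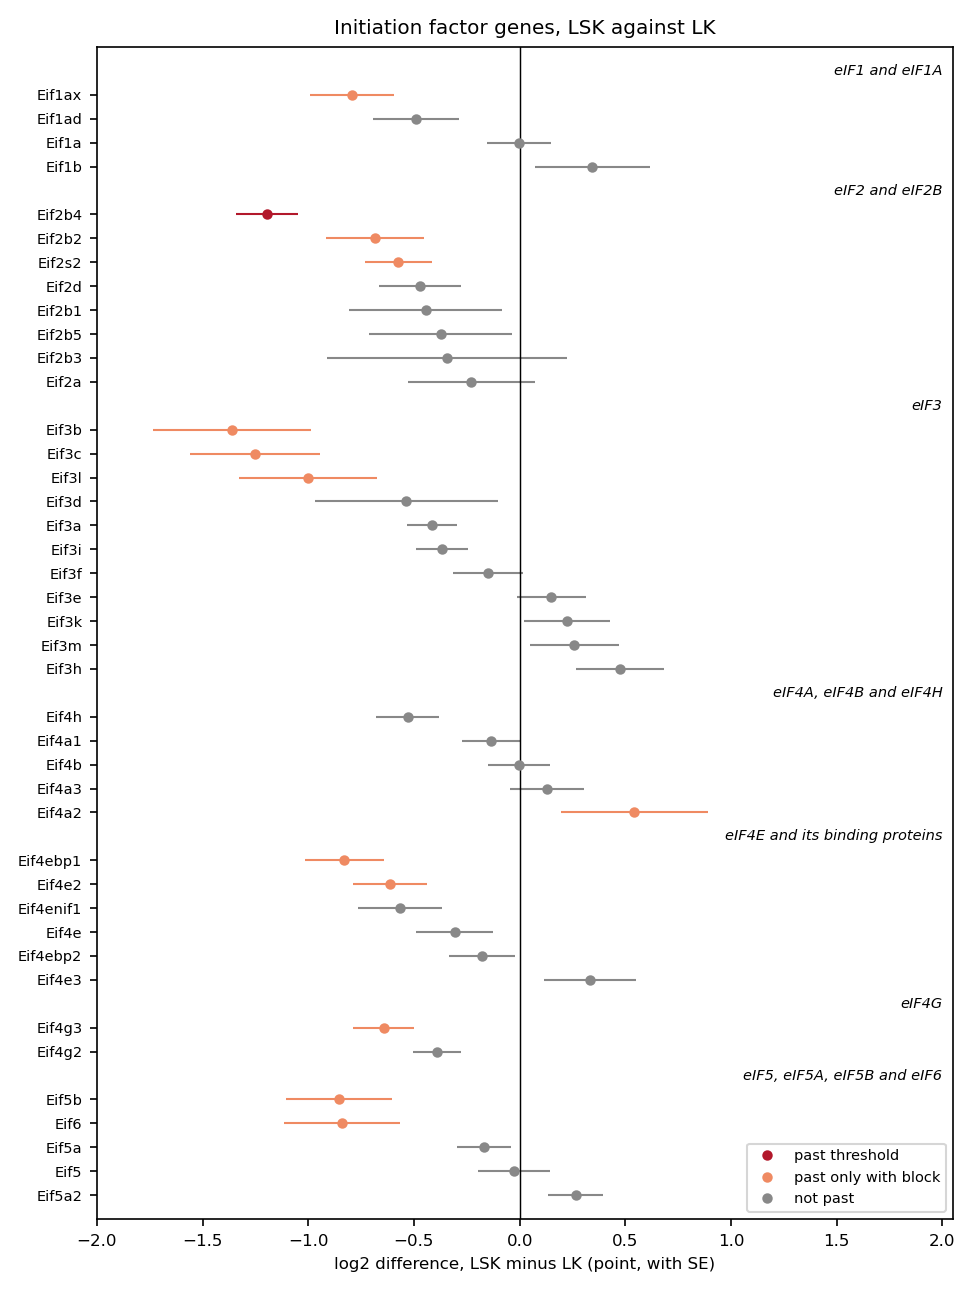
Log2 difference between LSK and LK (x axis, log2 units; point and standard error of the limma fit) for the 41 initiation factor genes (y axis), grouped by complex. Eif2b4 is the red point at -1.20, orange points pass the threshold only with the replicate number as a block, and 32 points lie left of 0.

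Stem cell markers fitted the labels: 6 of 6 measured were higher in LSK. The populations also differed in lineage and cycling genes. Erythroid markers were lower in LSK in 5 of 8 measured, with a list mean of 3.98 to 4.52 on the LSK arrays and 6.86 to 7.86 on the LK arrays (log2 intensity), and granulocyte and monocyte progenitor markers in 4 of 5 (8.43 to 9.39 and 9.79 to 10.97). On dropping LSK replicate 3 the granulocyte and monocyte count was 3, as it was on dropping LK replicate 1, and it was 0 for each of the other 4 arrays. Cycling genes were lower in 3 of 6 (7.97 to 8.64 and 9.35 to 9.47), in 5 with the block, in 2 without LSK replicate 3, in 1 without LSK replicate 2 and in 0 without each of the others. Erythroid calls numbered 3 without LK replicate 3 and 4 to 6 without each other array. Higher in LSK was 1 of 5 macrophage markers, C1qb (log2 difference 1.503, adjusted p = 0.0108), which was not called without LSK replicate 1 or LK replicate 3. With the block alone, the mature neutrophil markers Camp, Ltf and Ngp were higher (3 of 5, with list means of 8.36 to 9.28 and 7.79 to 8.83), the mast cell and basophil markers Cpa3 and Mcpt8 lower (2 of 4, 3.63 to 5.88 and 4.70 to 6.32), the macrophage marker Vcam1 lower, and of 4 megakaryocyte markers Gp9 higher and Pf4 lower. B-cell and T- and NK-cell markers passed in 0 of 5 each (limma, with Nkg7 of the second list the only one at an unadjusted p under 0.05), and Cd79a, Pax5, Cd3d, Cd3e, Cd3g and Cd8a lay under a mean log2 of 3 in both populations. Actb and Gapdh have control probe sets near either end of the transcript, and their mean log2 difference, 3' minus 5', is higher where RNA is more degraded or amplification favours the 3' end. LSK arrays averaged 2.64 ± 0.57 and LK arrays 3.53 ± 0.36 (SD, n = 3 each, two-sided exact permutation p = 0.2, where 0.1 is the smallest possible). The test left out the pairing by number. In all 3 same-number pairs the value was lower in LSK (2.32, 2.32 and 3.30 in replicates 1 to 3, against 3.26, 3.94 and 3.40). With it as a covariate, 0 initiation factor genes passed limma, against 25 of all genes (0.137%), which were higher in LSK, while the median difference of the 41 was -0.37 and 35 lay below 0. The replicate 2 arrays had the lowest upper quartile of intensity in each population (22.0 and 20.7, against 24.2 to 25.7). Whether cell mixture, cycling or RNA integrity took part in the differences was not tested beyond these values.

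The sequence at the start sites was set beside the differences, as a description with no test. RefSeq promoter windows of assembly GRCm38.p6, 250 bases before to 50 after a start, were found for 32 of the 41 genes. They were searched on both strands for CACGTG, the E-box bound by Myc, Max and Usf proteins, for CCGGAAG, a core bound by ETS proteins such as Gabpa, for AAGATGGC, the core of the YY1 site, and for the palindromic site of Nrf1. No motif contains another, and a gene with several starts counted where any of its windows held the motif. An E-box stood in 9 of the 32 genes (28.1%), against 8.09% of all 27025 genes with a window and 13.0% of the 5355 that also had a mean log2 of at least 5 here. The 9 were Eif1b, Eif3a, Eif3f, Eif3k, Eif4a1, Eif4e, Eif4h, Eif5a and Eif5a2, none of which passed with or without the block. Their log2 differences ran from -0.53 for Eif4h to 0.34 for Eif1b. Of the 10 genes with a window that were lower with the block, 0 held an E-box and 6 held the ETS core (Eif1ax, Eif2b2, Eif2b4, Eif3c, Eif3l and Eif4e2). The E-box stood in 9 of the 22 others (40.9%). At the 13.0% share few of 10 genes would hold an E-box, so the 0 cannot be read as a lack. The split rests on the calls with the block, and the motifs were chosen after values were seen. Over the 32 genes the ETS core stood in 14 (43.8%), against 9.93% of all genes and 22.6% of those with a mean log2 of at least 5. The YY1 core stood in 3 (9.38%, against 3.19% and 6.24%) and the Nrf1 site in 1 (3.12%, against 1.07% and 2.75%). Such matches are letters in a window and do not show that a factor binds there.

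The ETS core also stood in 8 of the 22 genes that were not lower with the block (36.4%), among them Eif1b, Eif3m and Eif5a2, which lay above 0. The E-box genes Eif4h and Eif3a had log2 differences of -0.53 and -0.41 without overlap. Stretches before the start are given for 4 genes with an E-box and 3 with the ETS core, chosen with their values known as examples of each motif. The E-box stretches are from chr7:108934300-108934399 (plus strand) for Eif3f, chr7:28981889-28981979 (minus strand) for Eif3k, chr3:138527157-138527256 (plus strand) for Eif4e and chr11:69672560-69672659 (minus strand) for Eif4a1. The ETS stretches are from chr7:126566381-126566481 (minus strand) for Eif3c, chr15:79075141-79075222 (plus strand) for Eif3l and chr1:87213869-87213938 (plus strand) for Eif4e2. All are in GRCm38.p6, are written 5' to 3' on the gene's strand and end at or before the base before the start. Capitals mark the E-box in the first 4 and the ETS core, in either orientation, in the last 3.
Eif3f: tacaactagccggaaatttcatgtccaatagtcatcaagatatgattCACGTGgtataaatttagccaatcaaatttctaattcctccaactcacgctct
Eif3k: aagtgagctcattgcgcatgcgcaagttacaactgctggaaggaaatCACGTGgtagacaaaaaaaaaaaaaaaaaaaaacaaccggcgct
Eif4e: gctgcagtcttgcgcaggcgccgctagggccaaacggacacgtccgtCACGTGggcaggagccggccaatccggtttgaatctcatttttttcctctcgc
Eif4a1: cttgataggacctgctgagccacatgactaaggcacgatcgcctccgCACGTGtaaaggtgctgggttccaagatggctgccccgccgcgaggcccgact
Eif3c: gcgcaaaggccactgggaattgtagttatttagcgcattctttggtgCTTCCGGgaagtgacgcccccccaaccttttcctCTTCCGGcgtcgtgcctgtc
Eif3l: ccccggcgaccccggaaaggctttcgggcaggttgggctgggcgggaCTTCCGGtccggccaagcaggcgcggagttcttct
Eif4e2: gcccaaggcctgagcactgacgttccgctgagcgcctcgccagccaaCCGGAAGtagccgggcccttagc
Counted back from the start, where -1 is the base before it, the E-box began at -68 in Eif3f, -44 in Eif3k, -64 in Eif4e and -189 in Eif4a1. Eif4e held a second E-box at -228, and the Eif3c stretch shows 2 ETS cores, at -68 and -34.

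The 8 measured genes of eIF2 and its exchange factor eIF2B lay below 0, with a median log2 difference of -0.46. Without LK replicate 1, 6 of 8 lay below 0 and the median was -0.25, and without LK replicate 2 it was -0.73. Eif2b4 encodes the delta subunit of eIF2B, part of the regulatory core that senses phosphorylated eIF2. Its log2 intensity was 5.14, 5.15 and 5.48 in LSK replicates 1 to 3 and 6.53, 6.47 and 6.35 in LK replicates 1 to 3. The populations did not overlap, and the lowest LK array stood above the highest LSK array. The level was 2.29-fold lower in LSK (log2 difference -1.20, SE 0.15, limma adjusted p = 0.00836, 0.0121 with the block). It passed in each of the 6 fits without 1 array, but not without both arrays numbered 2 (adjusted p = 0.0553, log2 difference -1.13), with the block and without the arrays numbered 1 (0.0694), or once the 3' to 5' control value entered as a covariate (0.22, log2 difference -0.98). Only 1 probe set, shared by transcripts of the gene, represents it.

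Eif2s2, the beta subunit of eIF2 itself, had log2 intensities of 10.33, 10.25 and 10.54 in LSK and 11.06, 10.72 and 11.06 in LK, again without overlap. The log2 difference was -0.57 (SE 0.16, adjusted p = 0.0819, 0.0465 with the block). Of its 5 probe sets with a mean log2 of at least 5, 4 lay below 0, at an unadjusted p under 0.05 each, and 2 of these passed over all probe sets (log2 differences -0.995 and -0.77, adjusted p = 0.0421 and 0.0455), against 1.18% of all probe sets that were lower. Eif2b2, the beta subunit of eIF2B, reached log2 intensities of 6.42, 5.75 and 6.36 in LSK and 7.16, 6.67 and 6.75 in LK (log2 difference -0.68, SE 0.23, adjusted p = 0.142, 0.044 with the block). The populations were separate, and the replicate 2 array was the lowest of each. The Eif2b2 probe set used is open to cross-hybridisation, and the others of the gene were dim, at log2 differences of -0.31 and -0.42.

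The remaining eIF2B subunit genes overlapped between the populations. Eif2b1 (alpha), Eif2b5 (epsilon, the catalytic subunit) and Eif2b3 (gamma) had log2 differences of -0.44, -0.37 and -0.34, with adjusted p from 0.545 to 0.785. Eif2d, a factor of non-canonical initiation and ribosome recycling, had a log2 difference of -0.47 (adjusted p = 0.212). Eif2a, which can carry initiator tRNA without eIF2 and is distinct from the alpha subunit of eIF2, differed least in the group on the probe sets used. Its log2 intensity was 6.73, 6.02 and 6.35 in LSK and 7.11, 6.07 and 6.60 in LK (log2 difference -0.23, adjusted p = 0.725), with overlapping arrays. A second Eif2a probe set, open to cross-hybridisation, gave -0.67 without overlap, at an unadjusted limma p of 0.0218 (adjusted p = 0.184 over all probe sets). With averaged probe sets the log2 difference was -0.375 for Eif2a and -0.114 for Eif2d. The alpha subunit gene Eif2s1 is not analysed here.

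Genes of eIF3 lay on both sides of 0 on the probe sets used. Of 11 measured, 7 lay below 0 and 4 above, with a median log2 difference of -0.37 that was -0.22 without LK replicate 1 and -0.23 with averaged probe sets. With the block 3 were lower. Those 3 and Eif2b4 had the 4 largest differences among the 41 genes. Eif3b, a core subunit, had log2 intensities of 6.98, 5.49 and 6.55 in LSK and 7.86, 7.44 and 7.82 in LK. LSK replicate 2 was lowest, and the populations did not overlap. The fold was 2.57 (log2 difference -1.36, SE 0.37, adjusted p = 0.0828, 0.0193 with the block).

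Eif3c, another core subunit, stood at 10.01, 9.76 and 10.98 in LSK and 11.56, 11.44 and 11.52 in LK (log2 intensity). LSK replicate 3 was nearer to LK than the other LSK arrays were, and without it the log2 difference went from -1.25 (SE 0.31, adjusted p = 0.0625, 0.0307 with the block) to -1.62 (adjusted p = 0.00945). In the fit with the 3' to 5' control value it was -0.59. Of its 4 probe sets, 3 gave log2 differences of -1.25 to -1.30 and the other gave 0.77 at an unadjusted limma p of 0.42. The one used is open to cross-hybridisation, and of those without a suffix 1 gave -1.295 and 1 gave 0.77. Eif3l, a peripheral subunit, had log2 intensities of 8.08, 7.21 and 8.15 in LSK and 9.13, 8.30 and 9.01 in LK (log2 difference -0.9995, SE 0.33, adjusted p = 0.13, 0.012 with the block). Each population's replicate 2 array was its lowest, and the populations stayed apart.

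The smaller shifts of Eif3a and Eif3i had tight replicates. Eif3a, the largest subunit, differed by -0.41 (SE 0.12, adjusted p = 0.0908) and Eif3i, which binds Eif3b, by -0.37 (SE 0.12, adjusted p = 0.133), on the log2 scale and without overlap in both. A further Eif3a probe set passed over all probe sets, with a log2 difference of -0.93 (adjusted p = 0.0312). Eif3d, a subunit that can bind the cap of selected mRNAs, differed by -0.54 (adjusted p = 0.542) and Eif3f by -0.15 (adjusted p = 0.664), both with overlap.

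The 4 eIF3 genes above 0 were Eif3h, Eif3m, Eif3k and Eif3e, all of the octamer part of the complex, to which Eif3a, Eif3c, Eif3f and Eif3l also belong. Eif3h had log2 intensities of 10.08, 9.78 and 9.59 in LSK and 9.57, 8.995 and 9.46 in LK. Its lowest LSK array lay just above its highest LK array (log2 difference 0.48, SE 0.21, adjusted p = 0.24). Eif3e, the subunit named Int6 for its viral integration site, reached 11.65, 11.54 and 11.50 in LSK and 11.69, 11.20 and 11.35 in LK (log2 intensity), with overlap and a log2 difference of 0.15 (adjusted p = 0.66). Eif3m and Eif3k differed by 0.26 and 0.22 (adjusted p = 0.544 and 0.594). None passed. In the fit that held the 3' to 5' control value as a covariate, Eif3e, Eif3k and Eif3m lay below 0 (log2 differences -0.07, -0.19 and -0.22) and Eif3h at 0.04. The 4 stayed above 0 under renewed quantile and cyclic loess normalisation. When probe sets without a suffix were preferred, Eif3e stood at -0.02, on a probe set near the lower end of the range (mean log2 2.36 in LSK and 2.38 in LK). Further Eif3e probe sets with a mean log2 of at least 5 gave -0.16 and 0.26, and another of Eif3m gave -0.19. The sign of Eif3e and Eif3m thus depended on the probe set. Eif3g is not analysed here, and the probe sets of Eif3j1 and Eif3j2 are shared between these genes and were not used.

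**Figure D2:**
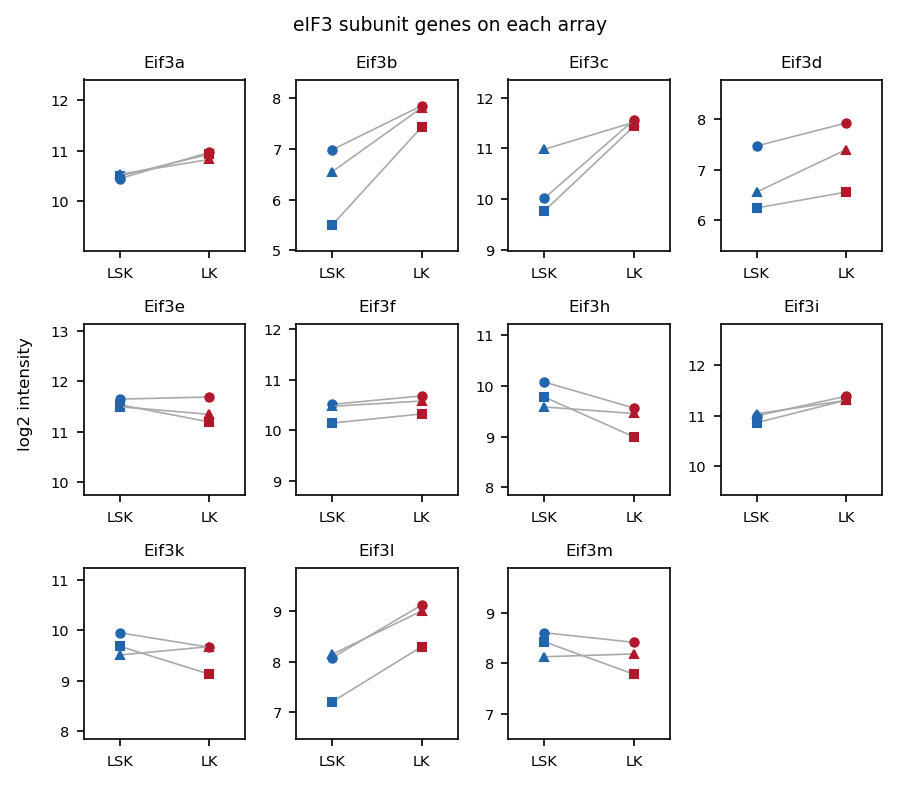
Log2 intensity (y axis, each panel spanning the same number of log2 units) of the 11 eIF3 subunit genes in LSK and LK (x axis); circles, squares and triangles are replicates 1, 2 and 3, and grey lines join arrays of the same number. Eif3b, Eif3c and Eif3l climb from LSK to LK on all 3 lines, and Eif3h descends on all 3.

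Among the helicase eIF4A and its cofactors the directions were mixed, with a median log2 difference of -0.002 over 5 genes that turned to 0.04 under renewed quantile and 0.06 under cyclic loess normalisation and to 0.08 without LK replicate 1. Eif4a1, the main helicase, had log2 intensities of 11.21, 11.50 and 11.44 in LSK and 11.43, 11.63 and 11.50 in LK, with overlap (log2 difference -0.14, adjusted p = 0.636). Its paralogue Eif4a2 stood at 9.14, 9.90 and 10.07 in LSK and 8.52, 9.43 and 9.52 in LK (log2 intensity). Here replicate 1 was lowest in both populations and each LSK array exceeded the LK array of its number, although the populations overlapped. It was the 1 gene higher with the block (log2 difference 0.54, SE 0.35, adjusted p = 0.436, 0.0475 with the block).

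Eif4a3, the helicase of the exon junction complex, was measured by a single-gene probe set at the lower end of the range, with log2 intensities of 2.55, 3.08 and 2.64 in LSK and 2.53, 2.68 and 2.68 in LK, so its level is not resolved here. Eif4h, a helicase cofactor, had log2 intensities of 10.52, 10.27 and 10.70 in LSK and 11.11, 10.99 and 10.99 in LK, without overlap. Its log2 difference of -0.53 (SE 0.15, adjusted p = 0.0897, 0.0723 with the block) came from a probe set open to cross-hybridisation. Of its other bright probe sets 1 gave -0.30 and 1 gave 0.14, and its 3 probe sets free of a suffix were dim, at 0.07 to 0.09. Eif4b, the other cofactor, had a log2 difference of -0.002 (adjusted p = 0.995).

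Of the 6 measured genes of the cap-binding protein eIF4E, its homologues and its partners, 5 lay below 0, with a median log2 difference of -0.44 (-0.28 with averaged probe sets, and -0.24, with 4 below 0, where probe sets without a suffix were preferred). Eif4e, the cap-binding protein of eIF4F, had log2 intensities of 10.46, 9.98 and 10.03 in LSK and 10.67, 10.33 and 10.39 in LK. These overlapped (log2 difference -0.31, SE 0.18, adjusted p = 0.388). Another Eif4e probe set with a mean log2 of at least 5 gave -0.66 without overlap, at an unadjusted limma p of 0.00192 (adjusted p = 0.054 over all probe sets). Eif4ebp1 encodes 4E-BP1, which holds eIF4E inactive until mTORC1 phosphorylates it. Its log2 intensity was 7.79, 7.68 and 8.22 in LSK and 8.88, 8.53 and 8.76 in LK, without overlap. At 1.78-fold (log2 difference -0.83, SE 0.19) its adjusted p of 0.05002 lay just outside the threshold, and it was 0.0273 with the block and 0.0296 without LSK replicate 3. The mean of its probe sets gave a log2 difference of -0.35.

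Eif4e2, a cap-binding homologue linked to translational repression, had log2 intensities of 10.42, 10.00 and 10.50 in LSK and 11.09, 10.78 and 10.90 in LK. The arrays did not overlap (log2 difference -0.61, SE 0.18, adjusted p = 0.0938, 0.0459 with the block), although another of its probe sets gave 0.50. Eif4ebp2, the second inhibitor, had 8.47, 8.09 and 8.23 in LSK and 8.58, 8.28 and 8.46 in LK (log2 intensity, difference -0.18, adjusted p = 0.58), with overlap. The third homologue, Eif4e3, was dim, at 4.97, 4.29 and 4.30 in LSK and 4.31, 4.24 and 4.01 in LK (log2 intensity, difference 0.33, adjusted p = 0.44). Its LSK replicate 1 stood apart from the other arrays. Eif4enif1, the shuttling protein that carries eIF4E to the nucleus, was also dim and differed by -0.57 on the log2 scale (adjusted p = 0.151), without overlap. Eif4e1b and Eif4ebp3 are not analysed here.

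Both measured eIF4G genes, the scaffolds that join cap, helicase and ribosome, had separate populations. Eif4g3 had log2 intensities of 6.31, 6.37 and 6.64 in LSK and 6.96, 7.13 and 7.16 in LK (1.56-fold, log2 difference -0.64, SE 0.15). Its adjusted p was 0.05005, and it was 0.0333 with the block and 0.0459 without LSK replicate 3. Eif4g2, known as DAP5, lacks the site for eIF4E and serves cap-independent initiation. Its replicates lay close together, with log2 intensities of 10.30, 10.27 and 10.29 in LSK and 10.70, 10.64 and 10.70 in LK (log2 difference -0.39, SE 0.11, adjusted p = 0.0951, 0.106 with the block). All 3 of its probe sets with a mean log2 of at least 5 lay below 0, the lowest at -0.80. Eif4g1 is not analysed here.

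**Figure D3:**
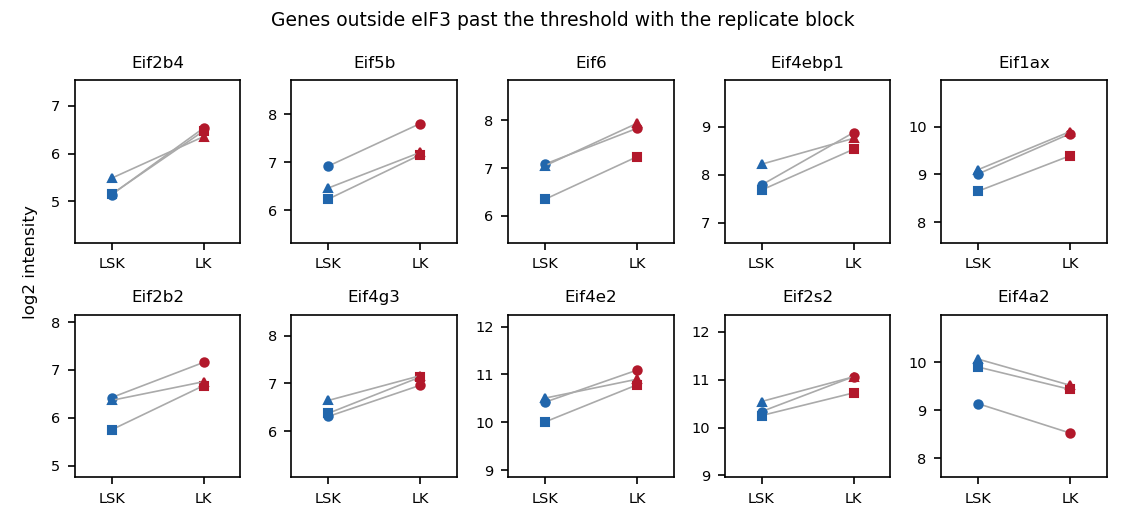
Log2 intensity (y axis, each panel spanning the same number of log2 units) in LSK and LK (x axis) of the 10 genes outside eIF3 that passed the threshold with the replicate number as a block; circles, squares and triangles are replicates 1, 2 and 3, and grey lines join arrays of the same number. In 9 panels all 3 lines climb from LSK to LK, and in Eif4a2 all 3 descend.

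The factors that scan, select the start and join the subunits differed among themselves. Eif1ax, the X-linked eIF1A gene, had log2 intensities of 9.01, 8.65 and 9.10 in LSK and 9.85, 9.39 and 9.90 in LK, without overlap (log2 difference -0.79, SE 0.20, adjusted p = 0.0647, 0.0179 with the block). Its other probe sets pointed the opposite way (0.50 and 0.63 on the log2 scale), and the mean of all its probe sets gave 0.11. The autosomal Eif1a stood at 10.28, 10.16 and 10.23 in LSK and 10.31, 9.97 and 10.39 in LK (log2 intensity), which overlapped, with a log2 difference of -0.004 (adjusted p = 0.991). A second Eif1a probe set gave -0.59 at an unadjusted limma p of 0.00442 (adjusted p = 0.0799 over all probe sets). The proteins of both genes are close relatives, and the Eif1a probe set used is shared by several transcripts, so the split between the genes is uncertain.

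Eif1ad, a protein with an eIF1A domain, had log2 intensities of 7.55, 7.02 and 7.39 in LSK and 7.87, 7.51 and 8.04 in LK, with a slight overlap (log2 difference -0.49, adjusted p = 0.218). Eif1b, the paralogue of the start-codon factor eIF1, had 7.98, 7.31 and 6.92 in LSK and 7.19, 6.90 and 7.10 in LK (log2 intensity, difference 0.34, adjusted p = 0.534). It overlapped and was -0.23 with the 3' to 5' covariate. Eif1 is not analysed here.

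Eif5b, the GTPase that joins the large subunit, had log2 intensities of 6.92, 6.23 and 6.46 in LSK and 7.81, 7.16 and 7.21 in LK, without overlap. Its log2 difference was -0.85 (SE 0.25, adjusted p = 0.0991, 0.0158 with the block), and its other probe set above a mean log2 of 5 gave -1.20. Eif6, which keeps the large subunit from joining too early, had log2 intensities of 7.08, 6.35 and 7.05 in LSK and 7.83, 7.24 and 7.93 in LK. Again the replicate 2 arrays were lowest and the populations stayed apart (log2 difference -0.84, SE 0.27, adjusted p = 0.128, 0.016 with the block).

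Eif5a carries the modified residue hypusine and helps ribosomes through difficult peptide bonds. Its log2 intensity was 11.86, 11.80 and 11.61 in LSK and 11.95, 11.89 and 11.93 in LK, barely apart (log2 difference -0.17, adjusted p = 0.514). Its paralogue Eif5a2 lay near the lower end of the range at 3.59, 3.42 and 3.63 in LSK and 3.38, 3.25 and 3.21 in LK (log2 intensity, difference 0.26, adjusted p = 0.292).

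Eif5, the GTPase activator of eIF2, depended on the probe set. The one with the highest mean had log2 intensities of 10.54, 10.67 and 11.01 in LSK and 10.61, 10.88 and 10.80 in LK (log2 difference -0.03, adjusted p = 0.951). Of the other 4, 2 gave log2 differences of -0.80 and -0.999 and another gave 1.59, each at an unadjusted limma p under 0.05, and none passed over all probe sets. The probe set at 1.59 had log2 intensities of 6.86, 7.14 and 7.66 in LSK and 5.38, 5.06 and 6.45 in LK. Eif5 was the only one of the 41 genes with probe sets that differed in both directions at that level, among probe sets with a mean log2 of at least 5 in a population.

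Across all 74 such probe sets of the 41 genes, 57 lay below 0, against 53.1% of the 10922 probe sets at that level. At an unadjusted limma p under 0.05, 33 lay below, against 23.7%, and 1 above, against 20.2%. Of 21 genes with several, 11 had all of them below 0, 0 had all above and 10 had both signs. Over all 45037 probe sets, 4 probe sets of initiation factors passed and were lower in LSK, against 1.18%, and 0 were higher, against 2.03%. The 4 came from Eif2b4, Eif2s2 (2 probe sets) and Eif3a.

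**Figure D4:**
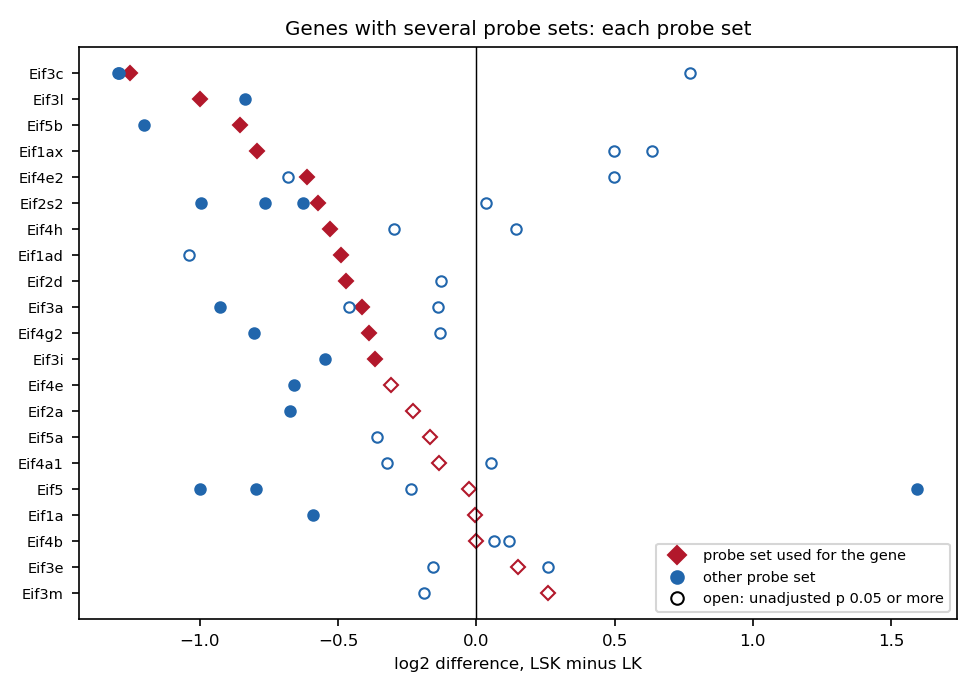
Log2 difference, LSK minus LK (x axis), of every probe set with a mean log2 of at least 5 in a population, for the 21 genes with several (y axis). Red diamonds are the probe sets used for the gene and blue circles the others, filled where the unadjusted limma p is under 0.05; Eif5 alone has filled points on both sides of 0, at -0.999, -0.80 and 1.59.

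Translation genes outside the Eif names were read from the same fit. Of 23 measured partners of initiation, 2 had higher levels in LSK and 2 lower, while 19 missed the threshold. Impact, which blocks activation of the eIF2 kinase Gcn2, was 4.83-fold higher, its log2 intensity averaging 9.93 ± 0.19 over the LSK arrays and 7.66 ± 0.26 over the LK arrays (SD, n = 3 each, limma adjusted p = 0.00239), and it passed in each of the 6 fits without 1 array. Ppp1r15a (GADD34), the inducible subunit of the phosphatase that restores eIF2, was 2.20-fold higher (log2 intensities of 7.55 ± 0.16 and 6.41 ± 0.31, n = 3 each, limma adjusted p = 0.0215), a call that needed LSK replicates 1 and 3 and LK replicate 3 (up to 0.0875 when 1 of these was dropped). Both act against the phosphorylation of eIF2. Lower in LSK were Dhx29, a helicase of scanning ribosomes (log2 difference -1.07, adjusted p = 0.0224), and Pabpc4, a poly(A)-binding protein (log2 difference -1.57, adjusted p = 0.0288). Either call went when LSK replicate 1 or 2, or LK replicate 1 or 3, was dropped (adjusted p up to 0.0765 for Dhx29 and 0.105 for Pabpc4). Of the eIF2 kinase genes, Eif2ak1, the haem-regulated kinase, was lower only with the block (log2 difference -1.31, adjusted p = 0.168, 0.02 with the block). Eif2ak2 lay above 0 without overlap (log2 difference 0.44, limma adjusted p = 0.123). Eif2ak3 and Eif2ak4 lay below 0 (-0.52 and -0.56, adjusted p = 0.207 and 0.335). Ppp1r15b, the paralogue of Ppp1r15a, lay at -0.31 without overlap (adjusted p = 0.229). Eif2ak2, Eif2ak3, Eif2ak4 and Ppp1r15b did not pass with or without the block, and phosphorylation of eIF2 was not measured.

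Termination and recycling genes had a median log2 difference of -0.58, with 3 of 8 measured lower and 0 higher. They were the release factor genes Etf1 (2.80-fold, adjusted p = 0.0366) and Gspt1 (1.89-fold, adjusted p = 0.0352) and Abcf1, an ATPase that works with eIF2 (2.34-fold, adjusted p = 0.0195). Dropping any single array cost Gspt1 its call (adjusted p up to 0.117). For Etf1 the same held for every array but LSK replicate 3 (up to 0.127), and for Abcf1 it held for LSK replicate 1 and all LK arrays (up to 0.0739). Elongation factors had a median of 0.02, and the 1 of 8 lower was Eef1e1, a tRNA synthetase scaffold rather than an elongation factor (3.23-fold, adjusted p = 0.0169). It was not called when LSK replicate 1 or LK replicate 3 was dropped (up to 0.0702). The elongation factor genes Eef1a1 and Eef2 had log2 differences of 0.004 and -0.06.

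Mitochondrial translation factors had a median of -0.53, with Gfm1, a mitochondrial elongation factor, the 1 of 8 lower (5.09-fold, adjusted p = 0.0482). Its call held when LSK replicate 3 was dropped and went when any other array was (up to 0.152). In the mTORC1 axis 0 of 9 passed limma, with a median of -0.05. The lowest p belonged to Deptor, an inhibitor of mTOR (log2 difference 1.17, adjusted p = 0.0988, unadjusted p = 0.0123). Together these lists had 7 genes lower and 2 higher, and 13 lower and 3 higher with the block. Single arrays decided the lower count. It was 0 when LSK replicate 1 was dropped and 0 when LK replicate 3 was. Dropping LK replicate 1 left 1 lower gene, LSK replicate 2 left 2 and LK replicate 2 left 3, while 8 were lower with LSK replicate 3 dropped. The higher count was 1 to 3 over the same fits, at 1 on dropping LSK replicate 1, LSK replicate 3 and LK replicate 3 in turn.

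**Figure D5:**
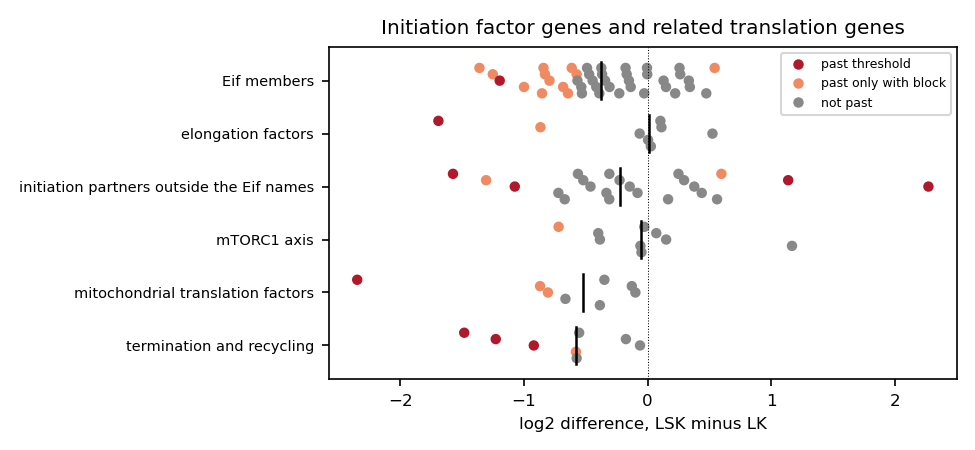
Log2 difference, LSK minus LK (x axis), of each measured gene of the Eif set and of 5 related gene lists (y axis); vertical bars are list medians, and points are spread vertically to be visible. Red points pass the threshold and orange points pass only with the block; the Eif median stands at -0.37, that of elongation factors at 0.02 and Impact at 2.27.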

How the data were processed

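Per the labels' protocols, sample RNA went through linear amplification and biotin labelling to an Affymetrix mouse array. The deposited values are linear-scale intensities, 1 per probe set and array. The submitters' processing notes name RMA, affy and R 2.11.0. RMA equalises arrays by quantiles and so hides any shift common to all genes, and folds are compressed near a log2 of 3.

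Values were taken to log2 with no pseudocount. Of 45101 probe sets, 64 controls were left out. Of the others, 34945 had 1 gene symbol, 932 several and 9160 none in the table used. Symbols were updated through a RefSeq table of GRCm38.p6 (34741 matched). Each gene was represented by its single-symbol probe set with the highest mean, and limma 3.58.1 in R 4.3.3 (population as the only term, two-sided) was checked on simulated data. Folds put the higher population first. Of the 41 representatives, 5 carry the suffix for possible cross-hybridisation and 3 that for shared transcripts. Probe sets were also fitted on their own over all 45037.

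Samples with the same number correlated in their deviations from the population means (0.42, 0.43 and 0.27), against at most 0.04 otherwise. Deviations within a population sum to 0, so positive values for some pairs push those of the others down. The low values of the other pairs are therefore no separate evidence for the pairing. Every same-number pair exceeded 0.1, so samples were treated as paired by number in the block fits and the same-number counts, on the data alone. The main fit and the settings without the block took no account of the pairing. The labels name no separate animals, so p-values reflect only the spread among these samples, which may be technical. No arrays were identical (0 of 15 pairs).

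The rule for named genes gave values on every array for members past the threshold with or without the block, for the extremes and the brightest gene of each complex, and for paralogues, and named in each related list the genes past the threshold or that with the lowest p. Other names and the 4 motifs were added after values were seen. Members and lists were chosen with earlier results of these data known. Alternatives were the block, 2 normalisations, a filter on dim genes, 2 other choices of probe set, trend and robust variances, array weights, the 3' to 5' covariate and left-out arrays. The block with each pair left out was added after seeing the data. The 3 arrays per population limit the precision. Protein sequences were not used here.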

Additional observations from a re-analysis of the deposited data

How the results depend on the processing

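Without the block 1 initiation factor gene was lower in LSK and 0 higher (0 at an unadjusted p under 0.05). The number lower was 12 with the replicate block, 11 with array weights, 8 with trend and robust variances, 6 without dim genes, 4 under either normalisation, 2 with averaged probe sets and 0 with the 3' to 5' covariate, and the number higher was 1 with the block and 0 elsewhere. Over all genes fitted, the share lower was 2.89% without the block, 7.36% with it, 12.5% without dim genes and 0 with the covariate. For the other settings no such share is given, so those counts cannot be read as particular to these genes. With the block and both arrays of a number left out, 1 to 3 were lower (3 without the arrays numbered 2 or those numbered 3). Without 1 array each, 1 to 4 were lower (4 without LSK replicate 3), the median ran from -0.49 to -0.203 and 20 to 27 genes did not overlap. With fewer arrays, a lack of overlap is easier to reach for any gene, and no share over all genes is given for these fits. In the planned and added settings the median kept its sign. The count without overlap in either order was 20, beside 14.8% of all genes in the lower and 13.2% in the higher order. Among the 36 genes with a mean log2 of at least 5 it was 18, beside 26.2% and 20.2% at that level. Over all 41 genes it was 12 with averaged probe sets. No share over all genes is given for that setting, so this drop cannot be read as particular to these genes.

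In the related lists 7 genes were lower and 2 higher. The number lower was 13 with the replicate block, 3 with averaged probe sets, 0 with the covariate and 2 without both arrays numbered 2, and also 2 with the block and without the arrays numbered 1 or 2. The number higher was 4 with cyclic loess, averaged probe sets or trend and robust variances, 6 with array weights and 0 with the covariate. Leaving out 1 array gave 0 to 8 lower and 1 to 3 higher. Single genes turned sign with the covariate (Eif1b -0.23, Eif3e -0.066, Eif3k -0.191, Eif3m -0.215, and Eif5 from below 0 to 0.32), with probe sets without a suffix (Eif1ax 0.498, Eif4e2 0.499, Eif4h 0.068) and with averaged probe sets (Eif1ax 0.113). The cause was not tested. Genes under a mean log2 of 5, such as Eif4a3, Eif5a2 and Eif4e3, are limited by signal near the lower end of the range.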
